A study of Mus musculus with 8 samples.

Results

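The proteasome genes described here were the 50 genes, of 50615 in the table, whose symbols begin with *Psma*, *Psmb*, *Psmc*, *Psmd*, *Psme*, *Psmf* or *Psmg* followed by a digit. A further 4 symbols with the ending that marks a pseudogene were left out. Among the 50, 48 encode subunits, activators, an inhibitor or assembly chaperones of the proteasome. The other two are *Psmc3ip*, which codes for a recombination cofactor of meiosis, and *Psme2b*, a close copy of *Psme2*. All but *Psmb11*, which is made in the thymus and had at most 7 normalized counts in any library, passed the filter on low counts, so 49 were tested.

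The RNA came from bone marrow-derived macrophages (BMDMs) of C57BL/6 mice, which were grown in M-CSF at 20 ng/ml for 6 days. The *Ncoa6*-sufficient mice were *Ncoa6* fl/fl, and the *Ncoa6*-KO mice were *Ncoa6* fl/fl LysM Cre, in which the *Lyz2* promoter drives Cre in myeloid cells. Both genotypes therefore carried the floxed alleles, and Cre was present in the *Ncoa6*-KO mice only, so its own effect cannot be told apart from that of the deletion. Cells of each genotype received medium alone, or 4 h of LPS (100 ng/ml) followed by 2 h of monosodium urate (MSU) crystals (200 µg/ml), and each of the 4 groups had 2 libraries.

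The proteasome degrades proteins that carry ubiquitin chains. Its barrel-shaped core has outer rings of alpha subunits, which gate the entry, and inner rings of beta subunits, some of which cut peptide bonds with a threonine at their processed amino end. A regulatory particle made of a base, with ATPases that unfold the substrate, and a lid, with the enzyme that removes ubiquitin, docks on the core. Interferons induce a second set of catalytic beta subunits (*Psmb8*, *Psmb9* and *Psmb10*), which replace *Psmb5*, *Psmb6* and *Psmb7* in newly built cores to form the immunoproteasome. Interferons also induce *Psme1* and *Psme2*, the subunits of the activator PA28, an alternative cap for the core. In macrophages these products shape the peptides shown on MHC class I.

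Expected counts summed to between 25281955 and 33673552 per library, and replicate libraries correlated at 0.989 to 0.993 across genes, which are not independent replicates. *Ncoa6* itself had 1515 and 1405 normalized counts in the *Ncoa6*-sufficient and 784 and 622 in the *Ncoa6*-KO libraries with medium, and 1297 and 1173 against 563 and 526 with LPS + MSU. The paper reports that the loxP sites flank only part of *Ncoa6*, so these counts of the whole gene do not measure the loss of the deleted part. Normalized counts here are counts scaled by edgeR's TMM factors to a common library size. All 6 macrophage markers checked were expressed. Their summed level was 171712 to 175419 normalized counts in *Ncoa6*-sufficient and 133003 to 155218 in *Ncoa6*-KO libraries with medium, and 244633 to 260078 against 200853 to 216809 with LPS + MSU. The markers did not move together. With LPS + MSU the mean of *Csf1r* fell, from 61376 to 47944 in *Ncoa6*-sufficient and from 51707 to 42809 in *Ncoa6*-KO cells. The means of the other macrophage markers rose on this scaling, that of *Adgre1* from 30864 to 81334 in *Ncoa6*-sufficient and from 24000 to 72449 in *Ncoa6*-KO cells. With scaling to total counts instead, *Cd68* was lower, by log2 -0.43 in *Ncoa6*-sufficient and -0.32 in *Ncoa6*-KO cells, as was *Itgam*, by -0.52 and -0.59. *Adgre1*, *Mertk* and *Fcgr1* kept their direction. Of 24 markers of neutrophils, lymphocytes, dendritic, stromal and endothelial cells, 13 had at most 20 normalized counts in every library, and *Cd3g* and *Ncr1* were at 0 throughout. The endothelial list summed to 364 to 710 with medium and 3056 to 6925 with LPS + MSU, nearly all of it *Kdr*. The dendritic list summed to 11 to 18 and 105 to 176, most of it *Xcr1* with LPS + MSU. The stromal list summed to 138 to 453 and 294 to 907, the neutrophil list to 234 to 288 and 427 to 546, the B cell list to 27 to 51 and 4 to 25 and the T and NK cell list to 0 to 1 and 0 to 3. Their part in the changes described here was not tested. In bulk RNA, fewer cells of a type and less RNA per cell cannot be told apart.

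The immunoproteasome catalytic subunits and the PA28 subunits rose most with LPS + MSU. *Psmb10*, which cuts after basic residues, had 1506 and 1200 normalized counts in *Ncoa6*-sufficient libraries with medium and 10328 and 8806 with LPS + MSU. In *Ncoa6*-KO BMDMs the counts were 934 and 794 with medium and 8659 and 7470 with LPS + MSU. The conditions did not overlap in either genotype, and the rise was 7.07-fold (log2 2.82 ± 0.148 SE, adjusted p = 3.31e-08 from edgeR) in *Ncoa6*-sufficient and 9.32-fold (log2 3.22 ± 0.151 SE, adjusted p = 1.52e-08 from edgeR) in *Ncoa6*-KO cells. *Psmb9*, whose subunit has little activity after acidic residues, had 964 and 754 normalized counts with medium and 4378 and 3846 with LPS + MSU in *Ncoa6*-sufficient cells. Its counts in *Ncoa6*-KO cells were 610 and 496 with medium and 3909 and 3520 with LPS + MSU. *Psmb9* rose by 2.26 ± 0.142 SE and 2.74 ± 0.146 SE on the log2 scale in the respective genotypes. *Psmb8*, the chymotrypsin-like subunit, had 2917 and 2446 normalized counts with medium and 10654 and 9724 with LPS + MSU in *Ncoa6*-sufficient cells. In *Ncoa6*-KO cells it had 1927 and 1829 with medium and 9366 and 8368 with LPS + MSU. The log2 changes of *Psmb8* were 1.93 ± 0.117 SE and 2.24 ± 0.118 SE. All 3 genes kept their stimulated libraries above every unstimulated one. Within a genotype, the same held for 39 of the 49 genes tested in *Ncoa6*-sufficient and 41 in *Ncoa6*-KO cells, these 3 among them. The share over all genes was not counted. Because *Psmb9* shares 5.79% of its exonic length with *Tap1* on the opposite strand and *Psmb8* shares 14.7% with the antisense gene *Gm20496*, some of their reads can belong to these genes if strand was not used in the counting, which the sources used here do not state.

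The coding sequences at the catalytic threonine show how closely each induced subunit resembles the one it replaces. In each gene the first in-frame run of a glycine and 2 threonine codons in the principal GENCODE transcript (GRCm38) was located. The first threonine of the run, in capitals below, becomes the amino end of the processed subunit. Each stretch is 30 bases of coding sequence, 5′ to 3′.
*Psmb5* (chr14:54616816-54617817, reverse strand, across an intron): ggaACCaccaccctggccttcaagtttctc
*Psmb8* (chr17:34199299-34199328, forward strand): ggcACAaccacactcgccttcaagttccag
*Psmb6* (chr11:70525493-70525911, forward strand, across an intron): gggACCacgatcatggctgtgcagtttaat
*Psmb9* (chr17:34185771-34187252, reverse strand, across an intron): gggACAaccatcatggcagtggagtttgac
*Psmb7* (chr2:38643358-38643387, reverse strand): ggcACTaccatcgcgggggtggtgtataag
*Psmb10* (chr8:105937679-105937708, reverse strand): gggACTaccatcgcggggcttgtgttccga
Of the 30 bases, 23 were identical between *Psmb8* and *Psmb5*, 24 between *Psmb9* and *Psmb6* and 22 between *Psmb10* and *Psmb7*. The 12 pairings of subunits that are not counterparts shared 15 to 20 bases. Over the whole aligned coding sequences, identity was 66.2% for *Psmb8* and *Psmb5*, 65.7% for *Psmb9* and *Psmb6* and 64.4% for *Psmb10* and *Psmb7*.

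*Psme2*, the beta subunit of PA28, had 2712 and 2342 normalized counts in *Ncoa6*-sufficient libraries with medium and 14072 and 12740 with LPS + MSU. In *Ncoa6*-KO cells the counts were 1937 and 1819 with medium and 12766 and 11291 with LPS + MSU. The rise was 5.3-fold (log2 2.41 ± 0.119 SE, adjusted p = 2.09e-08 from edgeR) in *Ncoa6*-sufficient and 6.4-fold (log2 2.68 ± 0.12 SE, adjusted p = 1.08e-08 from edgeR) in *Ncoa6*-KO cells. Per kb of transcript, *Psme2* went from rank 4 among the 50 genes with medium to the highest level with LPS + MSU in *Ncoa6*-sufficient BMDMs, at 13935 normalized counts per kb. *Psme1*, the alpha subunit, had 2823 and 2506 normalized counts with medium and 8950 and 8285 with LPS + MSU in *Ncoa6*-sufficient cells. It had 2186 and 1797 with medium and 7816 and 6646 with LPS + MSU in *Ncoa6*-KO cells. Its log2 changes of 1.69 ± 0.127 SE and 1.86 ± 0.128 SE were below those of *Psme2* in both genotypes. *Psme1* and *Psme2* lie close together on chromosome 14, from 55578123 to 55581529 and from 55587441 to 55591113 (GRCm38). The copy *Psme2b*, a gene on chromosome 11 whose coding sequence matches that of *Psme2* at 715 of 720 bases, rose by 2.33 and 2.42 on the log2 scale, from 157 and 162 to 810 and 788 normalized counts in *Ncoa6*-sufficient and from 149 and 98 to 695 and 639 in *Ncoa6*-KO libraries. Its normalized counts were 5.41% to 7.68% of those of *Psme2* in the 8 libraries, and reads of these 2 genes can hardly be told apart, so *Psme2b* is given as uncertain.

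**Figure D1:**
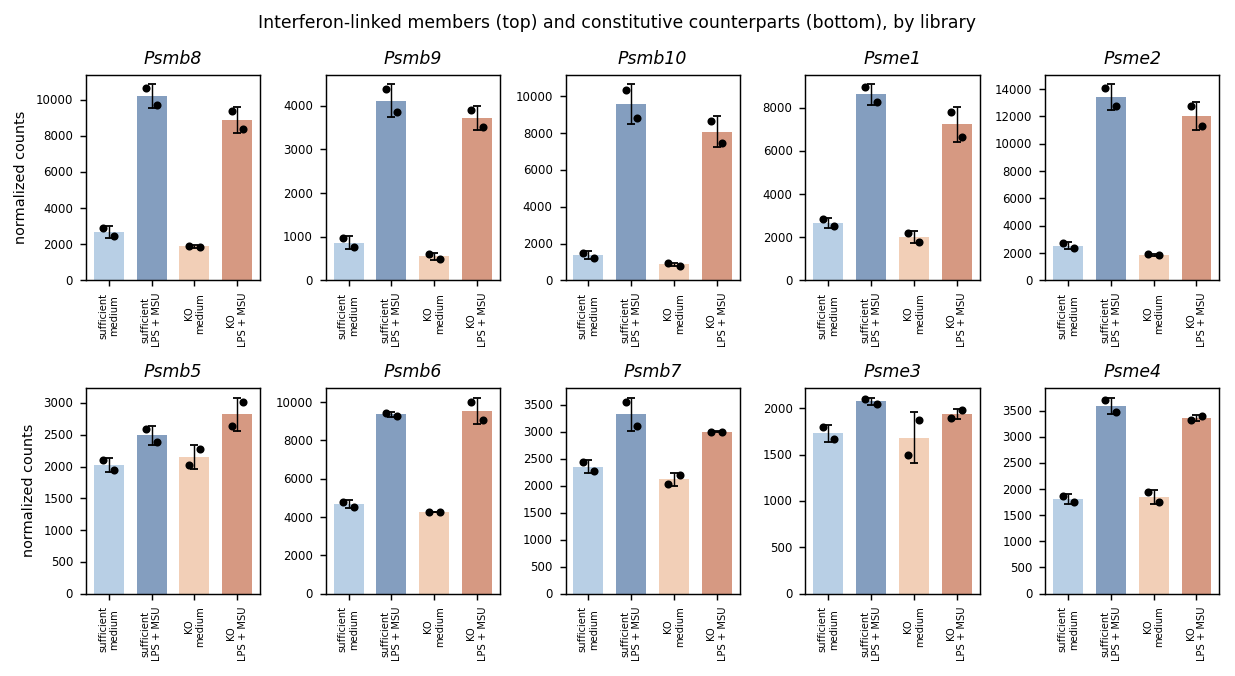
Normalized counts (y axis, from 0) of *Psmb8*, *Psmb9*, *Psmb10*, *Psme1* and *Psme2* in the upper panels and of *Psmb5*, *Psmb6*, *Psmb7*, *Psme3* and *Psme4* in the lower panels, by group (x axis). Points are the 2 libraries of a group, bars the means and error bars the SD. In each upper panel both *Ncoa6*-KO libraries with medium lie below both *Ncoa6*-sufficient ones.

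The constitutive counterparts changed less. *Psmb5*, the chymotrypsin-like subunit of the standard core, had 2096 and 1948 normalized counts with medium and 2593 and 2385 with LPS + MSU in *Ncoa6*-sufficient cells, and 2020 and 2280 against 2640 and 3008 in *Ncoa6*-KO cells. *Psmb7*, its trypsin-like partner, had 2434 and 2263 with medium and 3542 and 3111 with LPS + MSU in *Ncoa6*-sufficient cells, and 2031 and 2207 against 3003 and 2997 in *Ncoa6*-KO cells. *Psmb6*, the caspase-like subunit, stood apart from these, with 4809 and 4512 normalized counts with medium and 9458 and 9281 with LPS + MSU in *Ncoa6*-sufficient cells and 4250 and 4254 against 10036 and 9059 in *Ncoa6*-KO cells. On the log2 scale *Psmb5* changed by 0.30 and 0.39, *Psmb7* by 0.50 and 0.50 and *Psmb6* by 1.01 and 1.17 in *Ncoa6*-sufficient and *Ncoa6*-KO cells. With TMM scaling all of these were called. Scaling to total counts turned the direction of *Psmb5* and *Psmb7*.

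The ratio of each induced subunit to its counterpart within a library does not depend on the scaling of libraries. For *Psmb10* to *Psmb7*, the log2 ratio was -0.69 and -0.92 in *Ncoa6*-sufficient libraries with medium and 1.54 and 1.50 with LPS + MSU, and -1.12 and -1.48 against 1.53 and 1.32 in *Ncoa6*-KO libraries. For *Psmb8* to *Psmb5* it was 0.48 and 0.33 against 2.04 and 2.03 in *Ncoa6*-sufficient libraries, and -0.07 and -0.32 against 1.83 and 1.48 in *Ncoa6*-KO libraries. For *Psmb9* to *Psmb6* it was -2.32 and -2.58 against -1.11 and -1.27, and -2.80 and -3.10 against -1.36 and -1.36. Every library with LPS + MSU lay above every library with medium in all 3 pairs. The mean difference between conditions, 4 libraries against 4, was 1.74 for *Psmb8* to *Psmb5*, 1.42 for *Psmb9* to *Psmb6* and 2.52 for *Psmb10* to *Psmb7*. Each gave p = 0.0286 in an exact two-sided permutation test, the smallest p that this design allows. After adjustment over the 6 tests of these ratios each had 0.0571, which misses the threshold. With only these 3 of the 6 tests at the smallest p, adjustment could give no lower value. The miss therefore reflects the number of libraries and tests and does not bear on the size of the differences. Between genotypes the ratios differed by -0.49, -0.34 and -0.30. The other 3 tests, of 4 libraries against 4 between genotypes, mix both conditions, so the stimulus difference makes up their spread and they bear on no genotype difference. Within medium alone, where 2 libraries against 2 were not tested, both *Ncoa6*-KO libraries lay below both *Ncoa6*-sufficient ones in all 3 pairs, and the *Ncoa6*-KO minus *Ncoa6*-sufficient difference was -0.60 for *Psmb8* to *Psmb5*, -0.50 for *Psmb9* to *Psmb6* and -0.49 for *Psmb10* to *Psmb7*. Within LPS + MSU it was -0.38, -0.17 and -0.10, with no overlap for *Psmb8* to *Psmb5* and *Psmb9* to *Psmb6*. How often ratios of other genes separate in this way was not counted. Both *Ncoa6*-KO libraries lay below for 24.5% of all single genes with medium and 22.7% with LPS + MSU. The 3 ratios come from the same libraries.

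Counts per transcript length gave the share of the induced subunit in each pair of transcripts. *Psmb10* was 31.9% to 35.4% of its pair in *Ncoa6*-sufficient and 24.1% to 28.9% in *Ncoa6*-KO libraries with medium, and 71.5% to 72.1% and 68.8% to 71.8% with LPS + MSU. *Psmb8* went from 40.9% to 43.5% up to 69.2% to 69.4% in *Ncoa6*-sufficient libraries, and from 30.7% to 34.5% up to 60.6% to 66.2% in *Ncoa6*-KO libraries. *Psmb9* stayed the minor transcript throughout, at 8.98% to 10.6% and 6.44% to 7.81% with medium and 19.7% to 21.5% and 18.7% in both libraries with LPS + MSU. These are shares of RNA, not of protein, and rest on 1 transcript length per gene.

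**Figure D2:**
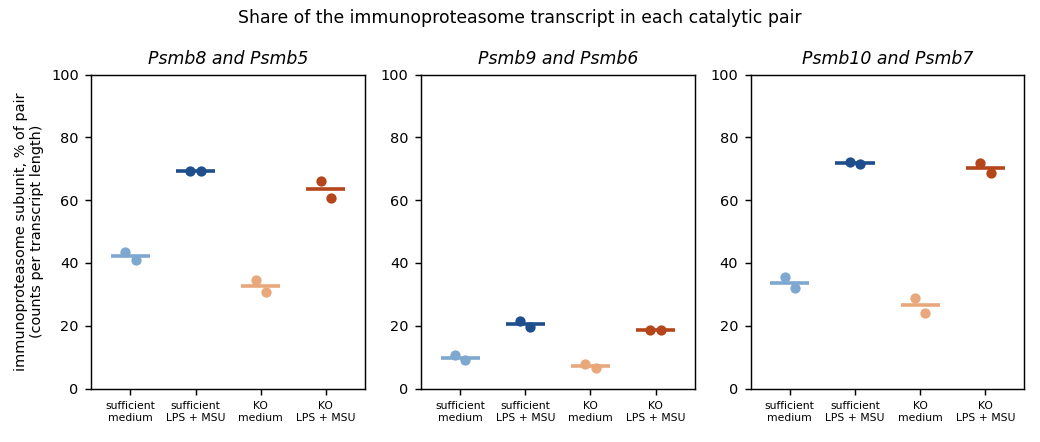
Share of the immunoproteasome transcript in each catalytic pair (y axis, percent of the counts per transcript length of both genes, 0 to 100) by group (x axis). Points are the 2 libraries of a group and lines their mean. With LPS + MSU *Psmb8* and *Psmb10* made up more than their counterparts in every library, and *Psmb9* at most 21.5%.

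With TMM scaling, most genes of the standard proteasome also rose, but not with scaling to total counts. Of the 31 genes of the constitutive core, base and lid, 23 rose and 0 fell in *Ncoa6*-sufficient BMDMs with TMM, whereas 5 were called higher and 16 lower with total counts. In *Ncoa6*-KO BMDMs the counts were 26 and 0 with TMM and 7 and 13 with total counts. Over all genes, total counts called 14.2% higher and 54.8% lower in *Ncoa6*-sufficient and 14.4% and 52.8% in *Ncoa6*-KO cells. All further values are on TMM scaling unless another is named. Of the 49 genes tested, 32 rose and 5 fell with LPS + MSU in *Ncoa6*-sufficient BMDMs, where 24.7% of all 17625 genes tested rose and 30.5% fell. In *Ncoa6*-KO BMDMs 35 rose and 3 fell, beside 25.2% and 27.9% of all genes. The median log2 change of the 49 was 0.40 and 0.45, beside a median over all genes of -0.12 and -0.07, and 43 and 44 of the 49 lay above that of all genes. Without the 5 interferon-linked genes (*Psmb8*, *Psmb9*, *Psmb10*, *Psme1* and *Psme2*) the medians were 0.35 and 0.40, with 27 and 30 of 44 called higher.

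Among the 7 alpha-ring genes, 5 rose in *Ncoa6*-sufficient and 7 in *Ncoa6*-KO cells, with median log2 changes of 0.94 and 0.99. With total counts 4 were called higher and 2 lower in *Ncoa6*-sufficient cells, beside 14.2% and 54.8% of all genes. In *Ncoa6*-KO cells it was 5 and 2, beside 14.4% and 52.8%. The ring was uneven, although the core holds its 7 alpha subunits in equal numbers. *Psma6* rose 2.68-fold (log2 1.42 ± 0.124 SE, adjusted p = 1.98e-06 from edgeR) in *Ncoa6*-sufficient cells, from 2427 and 2043 to 6500 and 5481 normalized counts, and *Psma5* by 1.26 on the log2 scale. *Psma1* had 3124 and 2936 normalized counts with medium and 3249 and 3030 with LPS + MSU, a log2 change of 0.05 ± 0.09 SE that was not called. Within a library the log2 ratio of *Psma6* to *Psma1* was -0.52 to -0.36 in the 4 libraries with medium and 0.70 to 1.00 in the 4 with LPS + MSU, without overlap. This pair was chosen as the ends of the range. *Psma2*, *Psma3* and *Psma4* lay between, at log2 changes of 0.89, 1.03 and 0.94, and *Psma7* at 0.15 was not called in *Ncoa6*-sufficient cells. Among the 4 beta subunits without a catalytic site, 3 rose in *Ncoa6*-sufficient and 4 in *Ncoa6*-KO cells, from 0.22 for *Psmb3*, not called, to 0.66 for *Psmb2* in *Ncoa6*-sufficient cells.

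The regulatory particle had smaller median changes than the core, a difference that was not tested. Of its 17 base and lid genes, 12 rose and none fell in either genotype, with median log2 changes of 0.32 and 0.39, beside 0.60 and 0.63 for the 14 constitutive core genes. With total counts the medians turned to -0.35 and -0.25. Of the 17, 0 were then called higher and 11 lower in *Ncoa6*-sufficient cells, beside 14.2% and 54.8% of all genes. In *Ncoa6*-KO cells it was 1 and 10, beside 14.4% and 52.8% of all genes. Of the 6 ATPases of the base, *Psmc2*, *Psmc4*, *Psmc5* and *Psmc6* rose in both genotypes, and *Psmc4* changed most in *Ncoa6*-sufficient cells at 0.53. The ATPases *Psmc1* and *Psmc3*, at -0.02 and 0.14, and the scaffold subunits *Psmd1* and *Psmd2*, at -0.04 and 0.23, were not called. The ubiquitin receptor *Psmd4* rose by 0.45 and 0.56. In the lid 7 of 8 genes rose in each genotype. *Psmd11*, a scaffold subunit of the lid, rose most, by 0.70 and 0.86, and *Psmd14*, the enzyme that removes ubiquitin, rose by 0.37 and 0.39. Lid genes differed widely in level: with medium in *Ncoa6*-sufficient cells *Psmd8* had 4672 and *Psmd11* 546 normalized counts per kb of transcript, the highest and lowest of the base and lid.

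**Figure D3:**
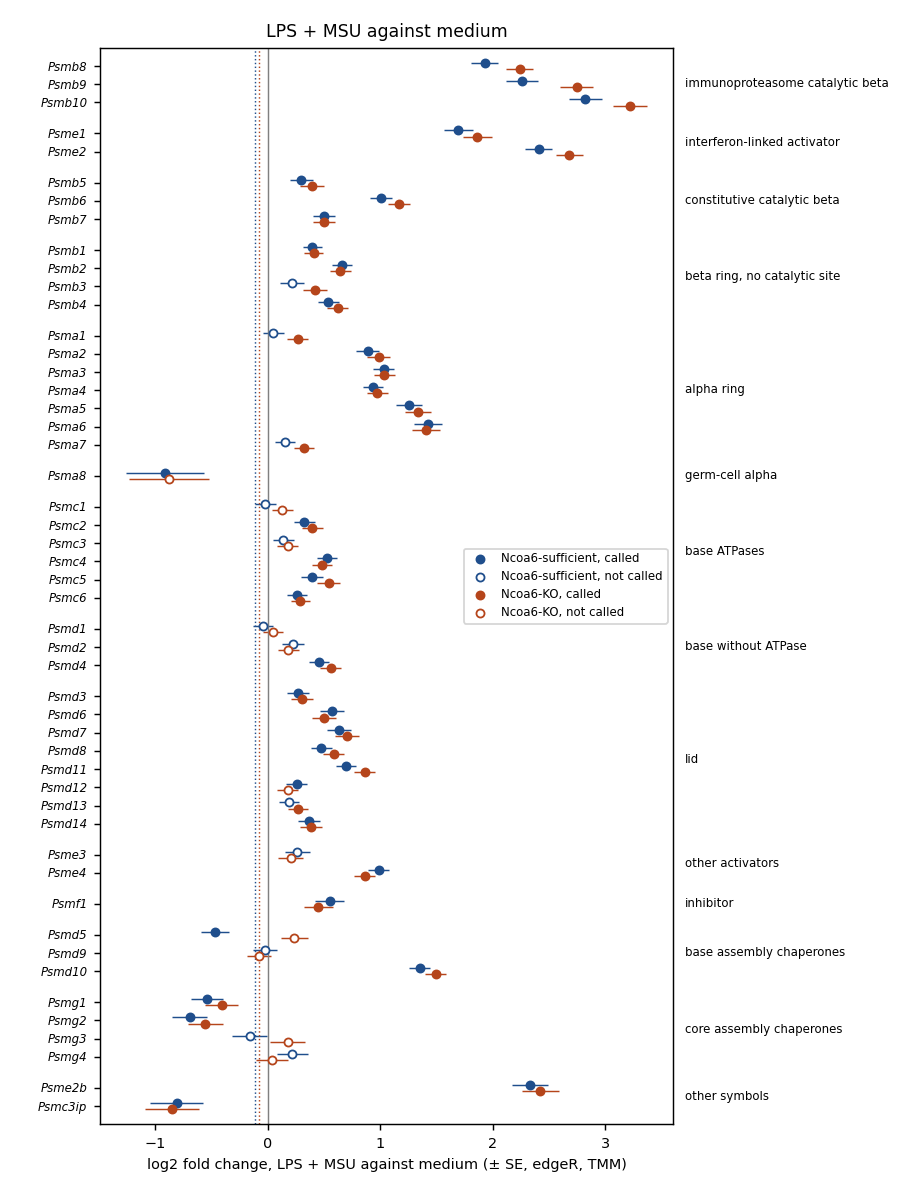
Log2 fold change with LPS + MSU against medium (x axis) for the 49 genes tested (y axis, grouped by role), in *Ncoa6*-sufficient and *Ncoa6*-KO BMDMs. Error bars are SE, filled points were called at an adjusted p under 0.05, and dotted lines are the medians over all genes. The 5 interferon-linked genes and *Psme2b* lie between 1.69 and 3.22, to the right of every other gene.

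Assembly chaperones went their own ways. *Psmd10* (gankyrin), which helps to build the base, had 574 and 526 normalized counts in *Ncoa6*-sufficient libraries with medium and 1387 and 1418 with LPS + MSU, and 531 and 580 against 1541 and 1580 in *Ncoa6*-KO libraries. It rose by 1.35 and 1.49 on the log2 scale, more than any lid or base subunit. *Psmd9*, another base chaperone, was not called, at -0.02 and -0.08. *Psmg1* and *Psmg2*, which pair to assemble the alpha ring, were called lower in both genotypes. DESeq2 called *Psmg2* in both and *Psmg1* in neither (adjusted p = 0.0933 and 0.173). *Psmg2* had 339 and 378 normalized counts with medium and 229 and 215 with LPS + MSU in *Ncoa6*-sufficient cells, and 311 and 416 against 259 and 235 in *Ncoa6*-KO cells, log2 changes of -0.69 and -0.55. *Psmg1* had 269 and 248 against 183 and 174, and 238 and 276 against 180 and 206, log2 changes of -0.54 and -0.41. The call of *Psmg1* was lost without the second *Ncoa6*-sufficient library with LPS + MSU or the first with medium, and without the first *Ncoa6*-KO library with LPS + MSU or the second with medium. That of *Psmg2* in *Ncoa6*-KO cells was lost without the second library with medium or the second with LPS + MSU. The partner chaperones *Psmg3* and *Psmg4* were not called. The 4 *Psmg* genes had 174 to 416 normalized counts in all libraries.

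Of the other caps, *Psme4* (PA200), which caps the core in the nucleus, rose by 0.99 and 0.86, from 1876 and 1747 to 3702 and 3481 normalized counts in *Ncoa6*-sufficient and from 1947 and 1751 to 3323 and 3396 in *Ncoa6*-KO libraries. *Psme3* (PA28 gamma), the nuclear relative of the induced pair, had 1797 and 1665 normalized counts with medium and 2104 and 2051 with LPS + MSU in *Ncoa6*-sufficient libraries, and 1491 and 1876 against 1898 and 1980 in *Ncoa6*-KO libraries. Its log2 changes of 0.26 and 0.20 were not called. In *Ncoa6*-sufficient cells the call depended on the fit, as DESeq2 called *Psme3* higher (0.37, adjusted p = 0.0128) and total counts in edgeR called it lower (-0.41, adjusted p = 0.00871). *Psmf1*, the inhibitor PI31, rose by 0.55 and 0.45. *Psmc3ip* fell by 0.81 and 0.85 on the log2 scale, from 146 and 147 to 69 and 98 normalized counts in *Ncoa6*-sufficient and from 105 and 157 to 71 and 74 in *Ncoa6*-KO libraries. DESeq2 did not call *Psmc3ip* in *Ncoa6*-sufficient cells (adjusted p = 0.059), and the call in each genotype was lost without either of 2 libraries. It shares 21.2% of its exonic length with *Mlx* on the opposite strand. The germ-cell alpha subunit *Psma8* had 15 to 37 normalized counts in all libraries.

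The direction of the smaller changes depended on how libraries were scaled. TMM factors were 0.766 to 0.829 in the libraries with LPS + MSU and 1.23 to 1.29 in those with medium. With scaling to total counts instead, the median of all genes was -0.78 in *Ncoa6*-sufficient and -0.71 in *Ncoa6*-KO cells. Of all calls, 20.6% and 21.4% were of higher genes, where TMM gave 44.8% and 47.5%. In *Ncoa6*-sufficient cells 13 proteasome genes were called higher and 25 lower, beside 14.2% and 54.8% of all genes. In *Ncoa6*-KO cells they were 15 and 22, beside 14.4% and 52.8%. Relative to the median of all genes, the 49 genes stood 0.51 and 0.52 higher with TMM and 0.50 and 0.52 higher with total counts. With TMM, DESeq2 and total counts alike, 13 genes were called higher in *Ncoa6*-sufficient BMDMs. These were *Psmb8*, *Psmb9*, *Psmb10*, *Psme1*, *Psme2*, *Psme2b*, *Psmb6*, *Psma3*, *Psma4*, *Psma5*, *Psma6*, *Psmd10* and *Psme4*. In *Ncoa6*-KO BMDMs they were these and *Psma2* and *Psmd11*. *Psmg2* was called lower under all 3 scalings in both genotypes, *Psmd5* in *Ncoa6*-sufficient and *Psmc3ip* in *Ncoa6*-KO cells.

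**Figure D4:**
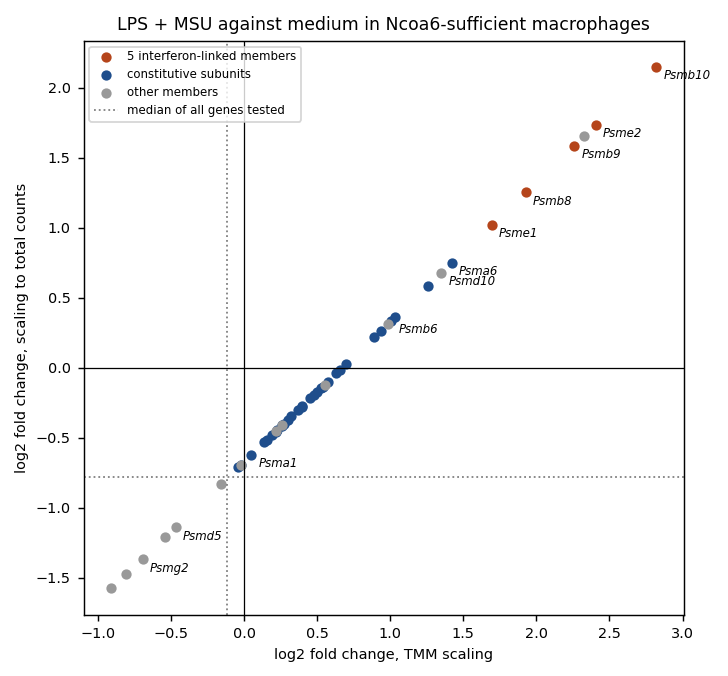
Log2 fold change with LPS + MSU against medium in *Ncoa6*-sufficient BMDMs with TMM scaling (x axis) and with scaling to total counts (y axis) for the 49 genes tested. Dotted lines mark the median of all genes, at -0.12 and -0.78, and solid lines mark 0. Points right of 0 and below 0 changed direction with the scaling, and the 5 interferon-linked genes did not.

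Promoter windows from RefSeq (GRCm38.p6), 250 bases before to 50 after the start of transcription, were at hand for 42 of the 50 genes, all 5 interferon-linked genes among them. They were searched on both strands for GAAANNGAA, an IRF-type motif, TTCNNNGAA, a GAS-type (interferon gamma-activated site) motif, and TGACNNNGC, the antioxidant-response-type motif bound by NFE2L1 and NFE2L2, with overlapping matches allowed. A gene was counted if any of its windows held a match, while the share over all promoters is per window, so the 2 shares are not of the same unit. The IRF-type motif was found for 7 of the 42 genes (16.7%) and in 8.56% of all 32851 windows. The GAS-type motif was found for 3 genes (7.14%) and in 8.3% of windows. The antioxidant-response-type motif was found for 6 genes (14.3%) and in 12.4% of windows. Of the 5 interferon-linked genes, *Psme1* had an IRF-type and *Psmb8* a GAS-type match, and none had the antioxidant-response-type motif, which was in the windows of *Psmb5*, *Psmb6*, *Psmc6*, *Psmd9*, *Psmd12* and *Psme4*. Such a match is a description of the letters and no sign of binding. The windows of *Psme1* and *Psmb8* are shown for the interferon-type matches and those of *Psmb6* and *Psmb5*, constitutive catalytic subunits, for the antioxidant-response-type matches, 5′ to 3′ in the direction of the gene and with the match in capitals.
*Psme1* (chr14:55578244-55578543, forward strand, match from 10 bases after the start): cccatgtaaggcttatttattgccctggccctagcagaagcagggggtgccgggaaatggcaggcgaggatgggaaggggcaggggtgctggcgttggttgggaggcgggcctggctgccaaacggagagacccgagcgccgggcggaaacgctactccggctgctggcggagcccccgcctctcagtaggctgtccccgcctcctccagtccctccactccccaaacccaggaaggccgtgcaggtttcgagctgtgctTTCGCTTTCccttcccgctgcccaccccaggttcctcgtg
*Psmb8* (chr17:34197945-34198244, forward strand, match from 97 bases before the start): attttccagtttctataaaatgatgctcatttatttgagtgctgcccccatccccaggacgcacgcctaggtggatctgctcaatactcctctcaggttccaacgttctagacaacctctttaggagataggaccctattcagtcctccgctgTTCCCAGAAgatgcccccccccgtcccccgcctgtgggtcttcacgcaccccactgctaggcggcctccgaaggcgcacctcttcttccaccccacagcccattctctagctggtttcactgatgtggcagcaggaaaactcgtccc
*Psmb6* (chr11:70525107-70525406, forward strand, match from 9 bases before the start): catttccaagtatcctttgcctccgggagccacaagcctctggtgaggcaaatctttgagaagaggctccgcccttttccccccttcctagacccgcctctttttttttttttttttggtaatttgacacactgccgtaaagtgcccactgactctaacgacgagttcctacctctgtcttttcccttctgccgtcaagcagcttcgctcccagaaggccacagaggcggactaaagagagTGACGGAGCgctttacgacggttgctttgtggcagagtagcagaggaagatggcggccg
*Psmb5* (chr14:54617946-54618245, reverse strand, match from 47 bases before the start): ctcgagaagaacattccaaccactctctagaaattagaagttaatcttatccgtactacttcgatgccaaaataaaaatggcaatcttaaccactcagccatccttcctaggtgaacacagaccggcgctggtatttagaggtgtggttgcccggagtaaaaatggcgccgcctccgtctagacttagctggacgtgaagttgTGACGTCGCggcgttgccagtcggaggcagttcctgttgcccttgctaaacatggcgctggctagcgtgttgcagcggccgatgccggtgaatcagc
The *Psme1* and *Psmb8* transcripts rose 3.23-fold and 3.8-fold in *Ncoa6*-sufficient BMDMs, as described above, and those of *Psmb6* and *Psmb5* 2.01-fold and 1.23-fold, on TMM scaling.

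With medium, all 5 interferon-linked genes were lower in both *Ncoa6*-KO libraries than in both *Ncoa6*-sufficient ones, which was so for 24.5% of all genes and for 22 of the 49 proteasome genes. *Psmb10* was 63.9% of its level in *Ncoa6*-sufficient cells (log2 -0.65 ± 0.142 SE, adjusted p = 0.0483 from edgeR) and was the only gene of the 49 called lower, beside 1.3% of all genes, while none was called higher, beside 0.573%. The group means were 1353 ± 217 and 864 ± 99.4 normalized counts (SD, n = 2). *Psmb9* and *Psmb8*, at log2 differences of -0.63 ± 0.142 SE and -0.51 ± 0.114 SE, had adjusted p-values of 0.0514 and 0.0509 from edgeR, just short of the threshold. *Psme2* and *Psme1*, at -0.43 ± 0.114 SE and -0.42 ± 0.125 SE, had 0.0975 and 0.144. The 5 genes were 5 of the 6 with an unadjusted p under 0.05, the other being the lid subunit *Psmd3* at -0.24. With DESeq2, 4 of the 49 genes were called lower, beside 2.03% of all genes, and none higher, beside 0.783%. The 4 were *Psmb8*, *Psmb9*, *Psmb10* and *Psme2*, with adjusted p-values of 0.0045, 0.00477, 0.00209 and 0.0284 from DESeq2, and *Psme1* had 0.0757. Leaving out any 1 of the 8 libraries ended the call of *Psmb10*. Without the first *Ncoa6*-KO library with medium *Psmb9* was called in its place. The summed macrophage markers, given above, were lower in *Ncoa6*-KO libraries too, and their part in this difference was not tested.

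Of the 31 genes of the constitutive core, base and lid, none was called with medium by edgeR or DESeq2, and 1 had an unadjusted p under 0.05 with edgeR and 0 with DESeq2. Their median log2 difference was -0.12, beside -0.03 over all genes, and they ranged from -0.24 for *Psmd3* to 0.12 for *Psmd8*. The 14 core genes had a median of -0.13 and the 17 base and lid genes one of -0.10, where the 5 interferon-linked genes had -0.51. *Psmb5* was at 0.09 ± 0.103 SE, *Psmb6* at -0.13 ± 0.0961 SE and *Psmb7* at -0.15 ± 0.0967 SE, none of them called. *Psme3* and *Psme4* differed by -0.04 and 0.03.

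With LPS + MSU the differences of the interferon-linked genes were smaller. *Psmb10* was at -0.25 ± 0.137 SE, *Psmb8* at -0.20 ± 0.113 SE, *Psmb9* at -0.15 ± 0.135 SE, *Psme1* at -0.25 ± 0.124 SE and *Psme2* at -0.16 ± 0.112 SE on the log2 scale. None was called by edgeR or DESeq2 and none of the 5 had an unadjusted p under 0.05 with edgeR, while *Psme1* had with DESeq2. Both *Ncoa6*-KO libraries lay below both *Ncoa6*-sufficient ones for *Psmb8*, *Psmb10* and *Psme1*, 3 of the 5, beside 22.7% of all genes and 19 of the 49. No proteasome gene was called lower, beside 1.63% of all genes. None of the 31 constitutive subunits was called, and they ranged from -0.21 for *Psmd3* to 0.23 for *Psmd8*, with 2 at an unadjusted p under 0.05. *Psmb5*, *Psmb6* and *Psmb7* stood at 0.18, 0.03 and -0.15, and *Psme3* and *Psme4* at -0.10 and -0.10.

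**Figure D5:**
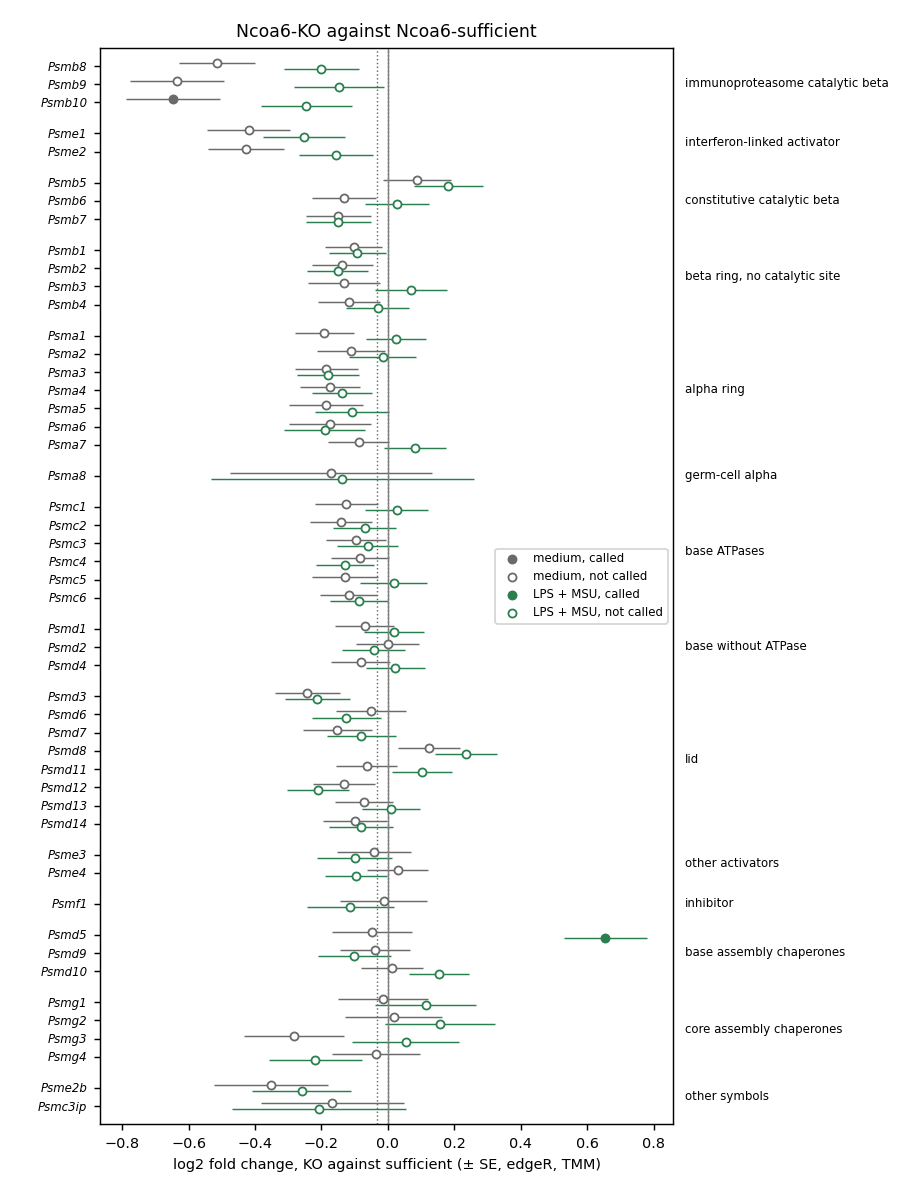
Log2 fold change in *Ncoa6*-KO against *Ncoa6*-sufficient BMDMs (x axis) with medium and with LPS + MSU for the 49 genes tested (y axis, grouped by role). Error bars are SE, filled points were called at an adjusted p under 0.05 and dotted lines are the medians over all genes. The filled points are *Psmb10* with medium, at -0.65, and *Psmd5* with LPS + MSU, at 0.65.

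The 1 gene called with LPS + MSU was *Psmd5*, a chaperone that holds ATPases of the base during assembly, and it was higher, beside 1.96% of all genes. It had 693 and 616 normalized counts in *Ncoa6*-sufficient and 916 and 1144 in *Ncoa6*-KO libraries with LPS + MSU, and 960 and 848 against 854 and 897 with medium. The log2 difference was 0.65 ± 0.126 SE with LPS + MSU (adjusted p = 0.0202 from edgeR) and -0.05 ± 0.12 SE with medium. *Psmd5* fell with LPS + MSU in *Ncoa6*-sufficient cells, by 0.47 on the log2 scale (adjusted p = 0.00758 from edgeR). In *Ncoa6*-KO cells it stood 0.23 ± 0.121 SE above the level with medium, which was not called. Relative to the median change of all genes, these were -0.35 and 0.31, and with scaling to total counts the change in *Ncoa6*-KO cells was -0.40. The call in *Ncoa6*-KO against *Ncoa6*-sufficient cells with LPS + MSU was lost without the first or the second *Ncoa6*-sufficient library with LPS + MSU and without the second *Ncoa6*-KO one, and in a fit of only the 4 libraries compared.

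Whether the response to LPS + MSU differed between the genotypes was tested as an interaction. No proteasome gene was called by edgeR, beside 0.0% of all genes. None was called by DESeq2 or limma-voom, for which the share over all genes was not counted. With each of these tools 2 genes had an unadjusted p under 0.05, *Psmd5* and *Psmb9* with edgeR. For *Psmd5* the response in *Ncoa6*-KO cells exceeded that in *Ncoa6*-sufficient cells by 0.70 ± 0.174 SE on the log2 scale (adjusted p = 0.458 from edgeR). The interferon-linked genes differed in the same direction, by 0.49 ± 0.195 SE for *Psmb9*, 0.40 ± 0.198 SE for *Psmb10*, 0.31 ± 0.16 SE for *Psmb8*, 0.27 ± 0.16 SE for *Psme2* and 0.17 ± 0.176 SE for *Psme1*, with adjusted p-values of 0.799 to 0.949 from edgeR. These values share their libraries with the comparisons above and are the differences between them. The interaction was therefore called for none of the 5 by these tools without a replicate block. A replicate block within each genotype called *Psmb9* and *Psmb10* (adjusted p = 0.0159 and 0.0368 from edgeR). The share of all genes called with that block was not counted, and whether the numbers pair the libraries is not known.

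Other proteasome genes, a list of 23 regulators, receptors and shuttle factors that the symbols do not cover, changed in both directions. With LPS + MSU 9 rose and 3 fell in *Ncoa6*-sufficient and 10 rose and 3 fell in *Ncoa6*-KO BMDMs, beside 24.7% and 30.5% and 25.2% and 27.9% of all genes. Median log2 changes were 0.14 and 0.22, beside -0.12 and -0.07 over all genes. With total counts 3 were called higher and 16 lower in *Ncoa6*-sufficient cells, beside 14.2% and 54.8% of all genes. In *Ncoa6*-KO cells it was 3 and 14, beside 14.4% and 52.8%. *Pomp*, the maturation factor of new cores, rose by 0.57 and 0.63, *Adrm1*, a ubiquitin receptor of the base, by 0.45 and 0.53 and *Nfe2l1*, a transcription factor that raises subunit genes when proteasomes are inhibited, by 0.52 and 0.65. With scaling to total counts these 3 genes lay between -0.22 and 0.02 and none was called. The lid subunit *Sem1*, at 0.13 and 0.26, and the deubiquitinases *Usp14*, at -0.22 and -0.02, and *Uchl5*, at -0.27 and -0.25, were not called. The largest rises were of *Zfand5*, at 1.16 and 1.03, whose product stimulates the proteasome, and *Fbxo7*, at 1.09 and 1.03, whose product binds *Psmf1*. The largest falls were of *Ddi2*, the protease that activates *Nfe2l1*, at -2.09 and -2.23, the shuttle factor *Ubqln2*, at -1.41 and -1.15, and the stress-induced *Zfand2a*, at -1.35 and -1.47. *Ddi2* went from 2652 and 2428 to 618 and 573 normalized counts in *Ncoa6*-sufficient and from 2847 and 2611 to 597 and 564 in *Ncoa6*-KO libraries. None of the 23 was called between genotypes by edgeR, with 3 at an unadjusted p under 0.05 with medium and 4 with LPS + MSU.

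Genes that act with the immunoproteasome also rose. All 7 of a list of interferon and antigen processing genes rose with LPS + MSU in both genotypes, beside 24.7% and 25.2% of all genes. Their median log2 changes were 3.06 and 3.05. *Irf1*, a transcription factor of the interferon response, rose by 3.17 and 3.92, *Nlrc5*, the activator of MHC class I genes, by 3.95 and 4.23, and the peptide transporter genes *Tap1* and *Tap2* by 3.82 and 4.10 and by 3.06 and 3.05. With medium all 7 were lower in both *Ncoa6*-KO libraries than in both *Ncoa6*-sufficient ones, beside 24.5% of all genes. None of the 7 was called by edgeR, beside 1.3% of all genes called lower, with 5 at an unadjusted p under 0.05. *Tap1* had 3382 and 2941 normalized counts in *Ncoa6*-sufficient and 2357 and 1768 in *Ncoa6*-KO libraries with medium, a log2 difference of -0.61 ± 0.147 SE (adjusted p = 0.0676 from edgeR). *Irf1* was at -0.52 ± 0.14 SE, *Nlrc5* at -0.40 ± 0.135 SE and *Tap2* at -0.19 ± 0.108 SE. DESeq2 called 3 of the 7 lower, *Irf1*, *Tap1* and *Tapbp*, beside 2.03% of all genes. With LPS + MSU these log2 differences were -0.33 for *Tap1*, 0.24 for *Irf1*, -0.11 for *Nlrc5* and -0.20 for *Tap2*, none of them called.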

How the data were processed

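Stranded poly(A) libraries were sequenced from 8 BMDM cultures. The authors aligned reads with STAR 2.7.3a and quantified genes with RSEM 1.3.3 (GRCm38), and deposited expected counts per gene, not normalized. Whether RSEM was run with the strand setting is not given in the sources used here.

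Expected counts were rounded and tested with edgeR 4.0.16 in R 4.3.3, by the quasi-likelihood test with TMM scaling and 1 mean per group over all 8 libraries (4 residual degrees of freedom). Genes with a sum of at least 10 counts were kept, which left 17625. P-values were adjusted by Benjamini-Hochberg over these genes, and a gene was called at an adjusted p under 0.05. For normalized counts, every library was brought to a size of 29332189, the mean of the effective sizes. Totals were 25281955 to 33673552 and the median biological coefficient of variation was 0.114. Catalytic pair ratios were compared by exact permutation tests with SciPy 1.17.1. Replicates came from different mice, 2 per group, so p-values rest on the spread between pairs of libraries.

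The proteasome genes and the lists of other genes were chosen with earlier results of these data known, and 1 gene of the interferon list is not reported here. Library values were given for *Psmb8*, *Psmb9*, *Psmb10*, *Psme1*, *Psme2*, *Psmb5*, *Psmb6*, *Psmb7*, *Psme3* and *Psme4* and for the 3 called genes with the largest rise and fall in each comparison, at a mean of at least 50 normalized counts. Library values of *Psma1*, *Psma6*, *Psmd10*, *Ddi2* and *Tap1* are shown as well, picked after their values were seen, and those of *Ncoa6* check the labels. Alternatives were DESeq2 1.42.0, its size factors, total counts, other filters, limma-voom (limma 3.58.1), a replicate block, fits of only the groups compared, a limit on fold change and leaving out each library.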

Additional observations from a re-analysis of the deposited data

Results flagged for a closer look

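With TMM scaling, the *Psmd5* libraries lay on opposite sides of those with medium in the 2 genotypes, although the change in *Ncoa6*-KO cells was not called (log2 0.23, adjusted p = 0.129 from edgeR). With total counts *Psmd5* was called lower in both genotypes, at -1.14 and -0.40. On TMM scaling both *Ncoa6*-sufficient libraries with LPS + MSU (693 and 616 normalized counts) lay below those with medium (960 and 848), and both *Ncoa6*-KO libraries (916 and 1144) above those with medium (854 and 897). The response in *Ncoa6*-KO minus that in *Ncoa6*-sufficient BMDMs was 0.70 on the log2 scale. As an interaction in edgeR it had an unadjusted p of 0.00202 and an adjusted p of 0.458, so the difference did not pass the threshold.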

How the results depend on the processing

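With total counts in place of TMM, 13 proteasome genes were called higher and 25 lower with LPS + MSU in *Ncoa6*-sufficient and 15 and 22 in *Ncoa6*-KO BMDMs. Over all genes the shares were 14.2% and 54.8%, and 14.4% and 52.8%. Median log2 changes became 1.58 and 2.04 for the interferon-linked genes, -0.074 and -0.001 for the constitutive core, -0.35 and -0.25 for base and lid and -0.83 and -0.60 for assembly chaperones, and the base and lid difference between genotypes with LPS + MSU was 0.012. Direction turned in *Ncoa6*-sufficient cells for *Psmb5* (-0.37), *Psmb7* (-0.17), *Psme3* (-0.41), *Nfe2l1* (-0.15), *Pomp* (-0.10), *Adrm1* (-0.22), *Sem1* (-0.55) and *Psma1* (-0.62), and in *Ncoa6*-KO cells for *Psmb5* (-0.24), *Psmb7* (-0.13), *Psme3* (-0.43), *Pomp* (-0.004), *Adrm1* (-0.10), *Sem1* (-0.38), *Psmd5* (-0.40) and *Psma1* (-0.37). With DESeq2, 2 genes were called lower in *Ncoa6*-sufficient cells. With DESeq2 and with its size factors in edgeR the core median was 0.71 in *Ncoa6*-sufficient cells, the base and lid median 0.44 in both genotypes, *Usp14* 0.034 in *Ncoa6*-KO cells (0.008 with filterByExpr), and with LPS + MSU the genotype difference of *Psmb6* was -0.009. Limiting calls to an absolute log2 change over 1 left 11 higher and 0 lower in each genotype, and 0 between genotypes.

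Between genotypes with medium, genes called lower numbered 4 with DESeq2, 0 with its size factors in edgeR, 3 with total counts, 0 with filterByExpr, 5 with no filter and 2 with limma-voom. Over all genes, 2.03% were called lower with DESeq2, 1.09% with its size factors in edgeR and 1.28% with total counts. For the filters, limma-voom, the replicate blocks and the fits of only the groups compared, the shares over all genes were not counted. Their calls therefore cannot be read against a background. The share of calls over all genes that were higher went from 30.5% to 27.8% with DESeq2 and 33.6% with total counts with medium, and from 54.6% to 40.8% and 68.8% with LPS + MSU. The interaction gave 1 call with no filter. A fit of only the groups compared left 0 genes higher in *Ncoa6*-KO cells with LPS + MSU. Same-numbered libraries deviated together across genes, with correlations of 0.31 between the *Ncoa6*-sufficient groups and 0.369 between the *Ncoa6*-KO groups. Between groups of different genotype the correlations were 0.0523 to 0.199. Whether the numbers pair the samples within a genotype is not stated and was not tested. A replicate block called 5 genes lower with medium. A replicate block within each genotype called 8 lower with medium, 3 lower with LPS + MSU and 3 higher in the interaction (*Psmd5*, *Psmb9* and *Psmb10*), and turned *Psmb5* with medium to -0.06 and *Nlrc5* with LPS + MSU to 0.03. The causes were not tested.

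Leaving out each library in turn gave 2 to 4 genes lower with LPS + MSU in *Ncoa6*-sufficient and 0 to 3 in *Ncoa6*-KO cells, 0 to 1 lower between genotypes with medium and 0 to 1 higher with LPS + MSU. Medians ranged from 2.10 to 2.45 for interferon-linked genes and 0.57 to 0.71 for the core in *Ncoa6*-sufficient cells, and for base and lid from 0.27 to 0.41, 0.29 to 0.45 in *Ncoa6*-KO cells and -0.15 to -0.03 between genotypes with medium. Pair ratios between conditions ranged from 1.60 to 1.86, 1.29 to 1.55 and 2.38 to 2.64, each with an exact permutation p of 0.0571, the smallest for 3 libraries against 4, and the genotype difference of *Psmb10* to *Psmb7* from -0.79 to 0.22. *Sem1* ranged from -0.002 to 0.27 in *Ncoa6*-sufficient and *Usp14* from -0.13 to 0.092 in *Ncoa6*-KO cells. Between genotypes with medium *Psmb5* ranged from -0.001 to 0.17, *Psme3* from -0.21 to 0.12, *Psme4* from -0.048 to 0.10 and *Psmd5* from -0.13 to 0.046, and with LPS + MSU *Psmb6* from -0.066 to 0.10. The interaction of *Psme1* ranged from -0.01 to 0.31. With 2 libraries per group, precision was limited by their number.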
